A study of Mus musculus with 12 samples.

Results

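The anterior Hoxa and Hoxd genes comprised 9 of the 39 Hox genes in the annotation: Hoxa2, Hoxa3, Hoxa4, Hoxa5, Hoxa6 and Hoxa7 on chromosome 6, and Hoxd3, Hoxd4 and Hoxd8 on chromosome 2. They were taken by gene name. Every region of the H3K27ac and H3K27me3 tables that overlapped the GENCODE gene body of a member, or the 10 kb on either side of it, was taken. This gave 7 of 31617 H3K27ac regions and 5 of 28047 H3K27me3 regions, 12 in all. Of these, 9 lay at the Hoxa members and 3 at the Hoxd members. Neighbouring genes shared regions, so the members were not independent of each other, and 3 of the H3K27ac regions and 1 of the H3K27me3 regions also lay within 10 kb of a posterior Hoxa or Hoxd gene.

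Hox genes encode homeodomain transcription factors whose order along the chromosome follows the order of their expression along the body axis, the anterior genes at the 3′ end of each cluster patterning hindbrain, pharyngeal arches and upper trunk. The clusters are classic targets of Polycomb and Trithorax proteins. Polycomb repressive complex 2 places H3K27me3, which spreads over silent stretches of a cluster, while active Hox promoters and enhancers carry acetylation on the same lysine, so the marks exclude each other on a given histone tail. Mesenchymal cells commonly keep the Hox pattern of the place in the body from which they came.

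The marks were profiled by CUT&RUN, in which an antibody tethers a nuclease to chromatin and the fragments it cuts free are read,, in mesenchymal stem cells (MSCs) of young mice (3 to 5 months) and old mice (18 to 22 months). All cells were cultured at 2% O2, and the cells of a sample were divided between the H3K27ac and the H3K27me3 antibody. There were 4 groups of 3 samples, 12 in all, named here by age and sample number. The labels gave no strain, sex, tissue of origin or passage, and nothing stated that the 3 samples of an age came from separate animals, so the p-values measure the spread between these samples, which may be technical.

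Library sizes were calculated back from the signal, taking its smallest step as a single read over a constant 0.5 kb. On this reckoning the libraries held 2750953 to 5541429 reads for H3K27ac and 3622108 to 9947515 for H3K27me3, and old sample 2 was the shallowest for each mark. Between 33.4 and 41.4% of H3K27ac reads and 53.8 to 66.6% of H3K27me3 reads fell in regions. The labelled cell type was checked on marker genes. All 11 MSC markers, among them Pdgfra, Prrx1 and Cxcl12, had an H3K27ac region within 1 kb of a start site and 0 had an H3K27me3 region there, and their summed H3K27ac signal per kb spanned 35.6 to 38.9 in young and 35.02 to 39.1 in old samples. An H3K27ac region lay over 2 of 8 blood and macrophage markers (Csf1r and Cd68, summed 4.83 to 5.42 in young and 4.72 to 5.56 in old), over 1 of 6 endothelial markers (Pecam1, 2.61 to 3.29 and 2.87 to 4.404) and over 0 of 4 neural markers. The other blood and endothelial markers of these lists, among them Ptprc, Spi1 and Cdh5, had none.

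The marks drew a different picture over each cluster. At the start sites, within 1 kb, 5 members carried a region of H3K27ac alone (Hoxa2, Hoxa3, Hoxa4, Hoxa6 and Hoxa7), 2 carried H3K27me3 alone (Hoxd3 and Hoxd4), 1 carried both (Hoxd8) and 1 had neither (Hoxa5). Of the 30 other Hox genes, 7 had H3K27ac alone, 14 had H3K27me3 alone and 9 had both. Over the 79.4 kb from 10 kb below Hoxa2 to 10 kb above Hoxa7, 64.0% of the bases lay in H3K27ac regions alone, 8.92% in H3K27me3 regions alone, 16.99% in both and 10.1% in neither. Over the corresponding 63.8 kb around Hoxd8, Hoxd4 and Hoxd3, none lay in H3K27ac alone, 89.2% lay in H3K27me3 alone and 10.8% in both. In a bulk sample an overlap of the marks does not show that the same chromosome carried both.

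**Figure D1:**
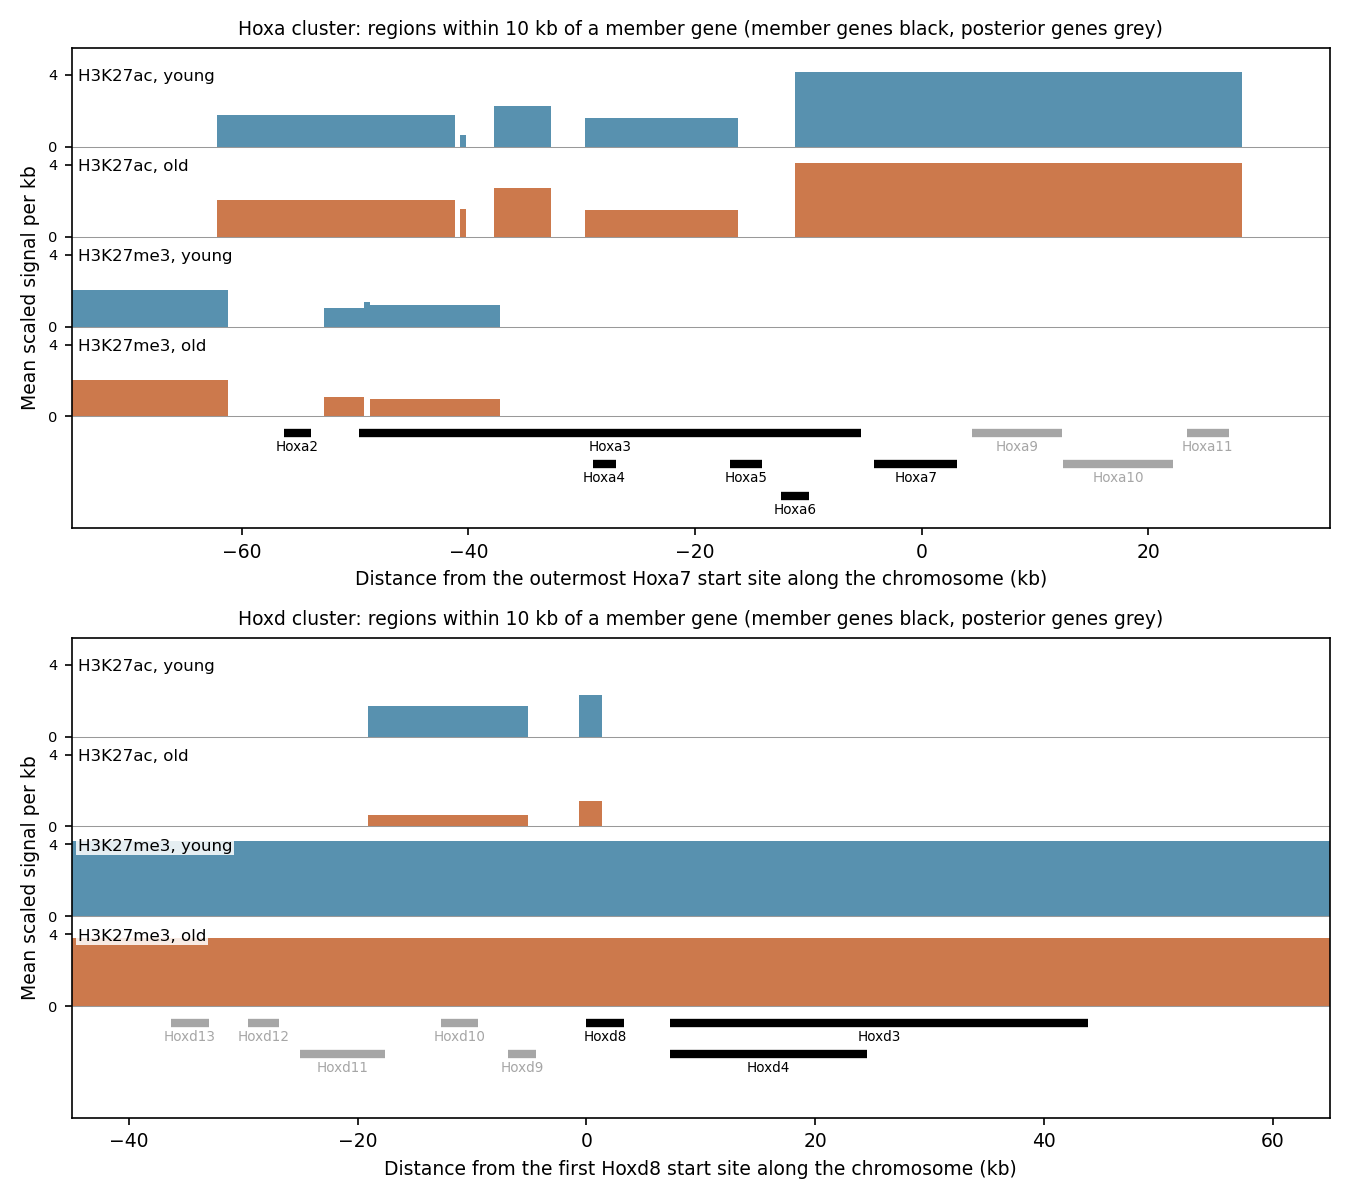
Map of the regions at the 9 member genes. Bar height is the mean scaled signal per kb of each age group (n = 3), with distance along the chromosome in kb on the horizontal axis. H3K27ac regions lie over the starts of all Hoxa members apart from Hoxa5. The highest is the region over the starts of Hoxa6, Hoxa7 and Hoxa3, whose level is an average that also takes in Hoxa9, Hoxa10 and Hoxa11. The Hoxd members lie inside a single H3K27me3 domain that runs past both edges of its panel, and the H3K27me3 flank beside Hoxa2 runs past the left edge of the other.

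The promoters of 8 of the 9 members were found in RefSeq (GRCm38.p6, 250 bases before to 50 after the start), and Hoxa4 was not matched. Those of Hoxa2 and Hoxa6 are shown as H3K27ac starts, that of Hoxa5 as the start without either region, and that of Hoxd4 as an H3K27me3 start. Capitals mark the motifs searched on both strands: TGATNNAT, a composite HOX and PBX site, AGGTCA, the core bound by nuclear receptors such as those for retinoic acid, and GGGCGG, the GC box.
Hoxa2, chr6:52164782-52165081, minus strand: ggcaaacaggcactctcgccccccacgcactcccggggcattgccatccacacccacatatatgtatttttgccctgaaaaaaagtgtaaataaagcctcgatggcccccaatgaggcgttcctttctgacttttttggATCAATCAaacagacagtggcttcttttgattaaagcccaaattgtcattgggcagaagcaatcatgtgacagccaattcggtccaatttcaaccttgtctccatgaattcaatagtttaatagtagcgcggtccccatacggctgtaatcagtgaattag
Hoxa6, chr6:52208623-52208922, minus strand: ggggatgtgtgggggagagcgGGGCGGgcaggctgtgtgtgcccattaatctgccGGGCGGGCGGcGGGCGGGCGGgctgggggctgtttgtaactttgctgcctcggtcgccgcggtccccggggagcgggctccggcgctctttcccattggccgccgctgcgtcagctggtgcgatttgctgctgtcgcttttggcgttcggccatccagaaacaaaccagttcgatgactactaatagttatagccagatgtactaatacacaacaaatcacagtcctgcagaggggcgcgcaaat
Hoxa5, chr6:52204538-52204837, minus strand: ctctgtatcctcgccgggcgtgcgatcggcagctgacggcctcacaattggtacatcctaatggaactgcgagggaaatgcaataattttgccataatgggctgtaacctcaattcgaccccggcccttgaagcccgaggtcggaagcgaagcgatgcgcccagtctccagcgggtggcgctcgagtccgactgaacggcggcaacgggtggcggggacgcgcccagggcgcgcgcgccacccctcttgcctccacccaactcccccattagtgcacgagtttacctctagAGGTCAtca
Hoxd4, chr2:74721728-74722027, plus strand: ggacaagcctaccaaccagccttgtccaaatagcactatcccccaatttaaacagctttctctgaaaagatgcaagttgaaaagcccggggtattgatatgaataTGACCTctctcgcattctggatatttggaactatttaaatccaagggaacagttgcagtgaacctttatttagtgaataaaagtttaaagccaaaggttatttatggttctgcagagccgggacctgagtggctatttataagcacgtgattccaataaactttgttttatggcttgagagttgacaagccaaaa

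TGATNNAT was found in 1 member promoter, that of Hoxa2, and in 8.85% of all 32851 promoters of the table. AGGTCA was found in 4 of 8, those of Hoxa5, Hoxd3, Hoxd4 and Hoxd8, against 16.3% of all promoters. GGGCGG was found in 1, that of Hoxa6, where it stood 5 times with overlaps, against 35.7% of all. These matches are letters in a window and not sites shown to be bound. The windows differed widely in CpG dinucleotides. Hoxa5 held 29 and Hoxa6 held 26, Hoxa3 and Hoxd3 held 20 each, Hoxa2 and Hoxa7 held 9 each, Hoxd8 held 6 and Hoxd4 held 4, beside a median of 7 over all promoters. In these windows CpG content did not sort the starts by mark. Hoxa5 with neither region held the most, and the H3K27me3 starts of Hoxd3 and Hoxd4 stood apart from each other. Each gene was read in a single window, and Hoxa7, Hoxd3, Hoxd4 and Hoxd8 have further annotated starts outside it.

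All values below are the deposited signal after a scaling that set the median ratio between libraries to 1. The deposited signal, named rpkm, was taken as reads per 1000000 reads of the library divided by a constant 0.5 kb, whatever the length of the region. Regions are therefore compared with each other only per kb of their own length. Differences between ages were tested with limma on log2(signal + 0.5) over all regions of a table, and a region was called at a Benjamini-Hochberg adjusted p under 0.05. In a bulk culture, fewer cells carrying a mark and less of the mark per cell cannot be told apart.

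H3K27ac over the Hoxa members did not differ detectably between ages. The strongest signal lay in a region of 39.5 kb at chr6:52207501-52247000, which covered the annotated start sites of Hoxa6, Hoxa7 and Hoxa3 and went on over Hoxa9, Hoxa10 and Hoxa11. Its scaled signal was 172, 166 and 154 in young samples 1, 2 and 3 and 149, 160 and 179 in old samples 1, 2 and 3. The groups overlapped, with an old sample at each extreme. The log2 difference, old minus young, was -0.02 (SE 0.08, 95% CI -0.19 to 0.15, adjusted p = 0.972 in limma), so the interval allowed a change of at most 1.14-fold downwards and 1.11-fold upwards. Per kb this region held 4.14, more than 99.0% of all H3K27ac regions, and in none of the 6 samples did another member region reach its lowest value of 3.76.

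Hoxa6 and Hoxa7, trunk-patterning genes of the middle of the cluster, were therefore described by the same region. The start of Hoxa3, a gene needed for thymus and parathyroid development, was annotated at position 52213115, between Hoxa6 and Hoxa7, and its gene model of 44.3 kb ran under Hoxa4, Hoxa5 and Hoxa6. Most of its exon sequence, 89.9%, lay at the other end of the model in the region of Hoxa2.

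That region, of 21.0 kb at chr6:52156501-52177500, covered the whole of Hoxa2, a selector gene of the second pharyngeal arch and hindbrain. Its signal was 39.2, 41.0 and 31.2 in the young samples and 31.5, 44.0 and 51.5 in the old. The highest value was old and the lowest was young, but the groups overlapped (log2 difference 0.17, SE 0.16, 95% CI -0.15 to 0.49, adjusted p = 0.789 in limma). A region of 5.0 kb inside the Hoxa3 model, at chr6:52181001-52186000, held 10.45, 11.5 and 11.8 in young and 14.0, 16.5 and 9.68 in old samples (log2 difference 0.21, SE 0.24, 95% CI -0.28 to 0.69, adjusted p = 0.838 in limma). It overlapped a single exon of 83 bases and no start site. Here, too, an old sample was the highest and another old sample the lowest.

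Hoxa4 and the 3′ end of Hoxa5 lay in a region of 13.5 kb at chr6:52189001-52202500. It held 23.5, 23.7 and 17.4 in young and 17.5, 22.8 and 19.4 in old samples, a log2 difference of -0.11 (SE 0.19, 95% CI -0.49 to 0.28, adjusted p = 0.907 in limma). This was the lowest level per kb among the Hoxa regions above the counting floor, 1.53, below the median of 2.20 over all H3K27ac regions. The start of Hoxa5, a regulator of lung and cervical vertebral patterning, lay 2.09 kb beyond the edge of this region and 2.91 kb from the edge of the Hoxa6 region, in a gap listed in neither table. The last Hoxa region, of 0.5 kb at chr6:52178001-52178500, held 0 to 3 reads in every sample, which is at or under the floor of 3 reads, and no fold change is given for it.

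**Figure D2:**
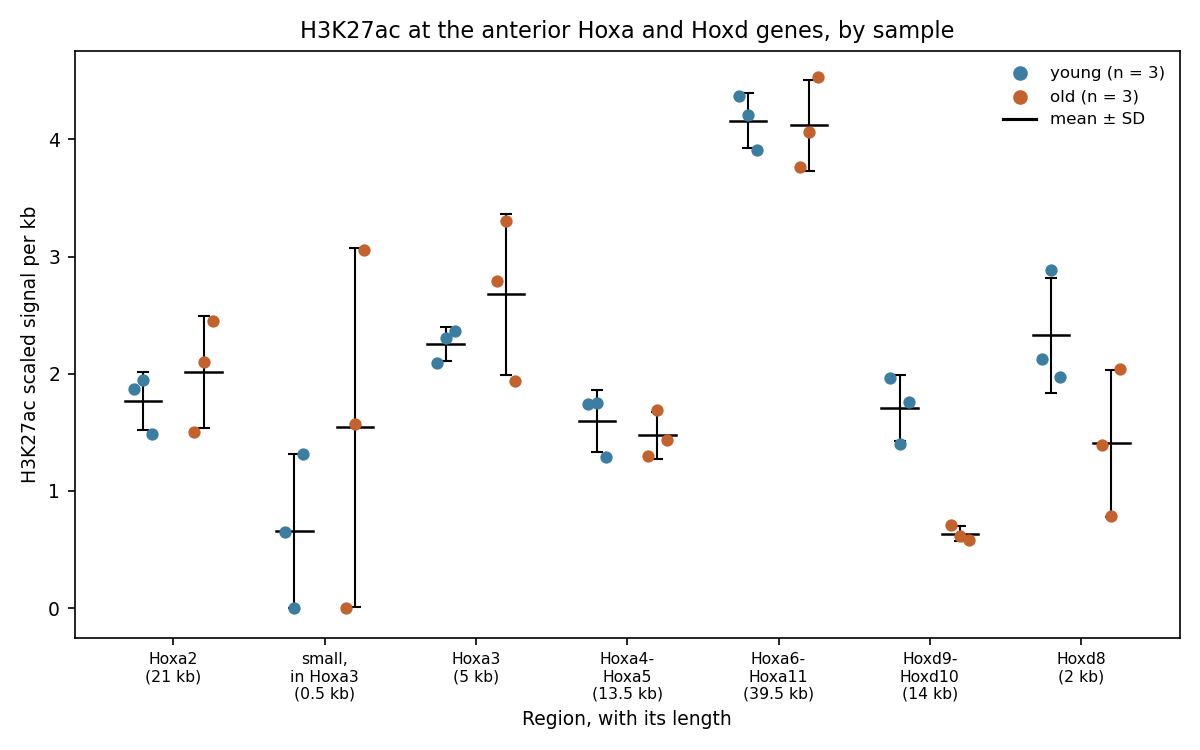
H3K27ac scaled signal per kb of region in each sample (points), with the mean and SD of the 3 young and 3 old samples. The Hoxa6-Hoxa11 region lies above all others at each age, and the groups are separate at the Hoxd9-Hoxd10 region alone, where old samples lie at 0.58 to 0.71 and young at 1.40 to 1.96.

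H3K27ac at the Hoxd members was sparse and lower in the old samples at 1 of the 2 regions. Neither Hoxd3, a gene of atlas and upper cervical vertebral identity, nor Hoxd4, its neighbour in cervical patterning, had an H3K27ac region within its body or within 1 kb of a start. The region that fell lay 5.12 kb upstream of Hoxd8, at chr2:74685501-74699500, and belonged to the set only through the 10-kb margin of that gene. Over its 14.0 kb it covered the start sites of the posterior genes Hoxd9 and Hoxd10. Its scaled signal was 27.4, 19.6 and 24.7 in the young samples and 9.96, 8.65 and 8.15 in the old, from 84, 34 and 75 reads and from 25, 11 and 16 reads. Every old sample was below every young sample. The region was 2.57-fold lower in old MSCs (95% CI 1.90 to 3.49), a log2 difference of -1.36 (SE 0.22, adjusted p = 0.00238 in limma).

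This was 1 of 7 member regions called, and 1 of 7 in which the groups did not overlap. Of all H3K27ac regions 0.0822% were called (26 regions), and 14.5% had groups that did not overlap. The call was lost without young sample 1 (log2 difference -1.26, adjusted p = 0.106 in limma) and when the variances were moderated without a trend or robust weights (adjusted p = 0.293), while the direction stayed. Its level was low throughout, 1.71 per kb in young and 0.64 per kb in old samples. Its mean per kb over both ages was above only 0.24% of all H3K27ac regions. An exact permutation test of 3 against 3 samples cannot go below 0.10, which this region reached.

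The start of Hoxd8 itself, a gene of trunk patterning, carried a separate H3K27ac region of 2.0 kb at chr2:74704001-74706000. It held 4.25, 5.77 and 3.95 in young samples and 2.79, 1.57 and 4.08 in old samples, from only 13, 10 and 12 reads and from 7, 2 and 8 reads. The old samples 1 and 2 lay under every young sample, and old sample 3 lay among them. The log2 difference was -0.69 (SE 0.42, 95% CI -1.54 to 0.15, adjusted p = 0.628 in limma), so a change between 2.90-fold lower and 1.11-fold higher was not distinguished at this depth. The age difference at the Hoxd9-Hoxd10 region was more negative than here by -0.67 on the log2 scale, and the groups overlapped (exact permutation p = 0.20, two-sided). With 3 against 3 samples this test cannot go below 0.10, so it does not decide whether the regions differ.

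What set the Hoxd8 region apart was its sequence. It held 109 CpG dinucleotides per kb, more than 99.98% of all H3K27ac regions, whose median was 11.2, and its GC content was 68.6% beside a median of 44.7%. The other H3K27ac member regions above the floor held 11.4 to 34.4 CpG per kb. They were longer, at 5.0 to 39.5 kb, and a short CpG-rich stretch adds less per kb to a long region. The densest 300 bases of the Hoxd8 region had 61 CpG dinucleotides, in capitals here, and lay just downstream of the annotated starts of the gene, at chr2:74705248-74705547 on the plus strand.
Hoxd8 H3K27ac region, densest window: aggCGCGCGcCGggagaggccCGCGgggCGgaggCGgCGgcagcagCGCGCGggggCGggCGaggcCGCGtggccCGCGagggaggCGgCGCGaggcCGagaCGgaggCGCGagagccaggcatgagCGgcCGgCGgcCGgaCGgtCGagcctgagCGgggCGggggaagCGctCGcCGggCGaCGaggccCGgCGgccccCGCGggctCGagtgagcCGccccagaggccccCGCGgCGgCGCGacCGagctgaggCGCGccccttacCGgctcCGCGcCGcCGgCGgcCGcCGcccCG

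The difference between ages at the Hoxd9-Hoxd10 region was set beside that at the strongest Hoxa region. The log2 signal of the Hoxd9-Hoxd10 region relative to the Hoxa6-Hoxa11 region was -2.63, -3.05 and -2.62 in the young and -3.83, -4.14 and -4.37 in the old samples, a shift of -1.35 with no overlap. The pair was chosen after the values were seen, so the shift is a description with no test. At the other edge, the Hoxa6-Hoxa11 region was followed without a gap by a region over Hoxa13 that is no member. That neighbour held 55.5, 54.2 and 45.7 in young and 17.5, 15.7 and 10.7 in old samples (log2 difference -1.81, SE 0.18, adjusted p = 6.46e-08 in limma). Every old sample was below every young sample there.

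H3K27me3 was called different at 0 of 5 member regions in limma, 0 of 5 in edgeR and 0 of 5 in DESeq2 run without its independent filter, and 0 of 5 had an unadjusted p under 0.05, against 13.9% of all H3K27me3 regions. The groups overlapped in all 5. Of all H3K27me3 regions 0.488% were called (137 regions), and 19.1% had groups that did not overlap. All 3 Hoxd members lay in a single domain of 244.5 kb at chr2:74580501-74825000, which ran from beyond Evx2 to beyond Hoxd1 and was the 69th longest of the table. Its signal was 947, 1007 and 1104 in the young samples and 989, 954 and 824 in the old. Young sample 3 was the highest and old sample 3 the lowest, with the others interleaved (log2 difference -0.15, SE 0.08, 95% CI -0.31 to 0.02, adjusted p = 0.432 in limma). It held 3.97 per kb, more than 99.4% of all H3K27me3 regions. The share of reads within H3K27me3 regions was 62.3 to 66.6% in young and 53.8 to 60.8% in old libraries. H3K27me3 regions over neural markers, silent in MSCs, had a summed signal per kb of 16.1 to 18.4 in young and 11.7 to 15.7 in old samples (4 of 4 genes), and those over blood markers 8.66 to 8.78 and 8.07 to 8.58 (4 of 8 genes). The part of these shifts in the Hoxd values was not tested.

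At the Hoxa members H3K27me3 was confined, among the regions listed, to the Hoxa2 and Hoxa3 side of the cluster. A flank of 47.0 kb at chr6:52110501-52157500 ended 4.92 kb short of Hoxa2. It held 90.3, 92.1 and 104 in young and 107, 94.98 and 85.6 in old samples, with both extremes old and sample 3 of the young just under the highest (log2 difference -0.00, SE 0.10, 95% CI -0.22 to 0.21, adjusted p = 0.998 in limma). At 2.03 per kb it was above the median of 1.47 over all regions, and below every sample of the Hoxd domain.

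From between Hoxa2 and Hoxa3 into the Hoxa3 model, a weak stretch in 3 adjoining regions carried H3K27me3. The longest, 11.5 kb at chr6:52170001-52181500, covered 53.7% of the Hoxa3 exon bases. It held 12.4, 12.5 and 15.7 in young and 13.8, 12.5 and 6.34 in old samples (log2 difference -0.37, SE 0.24, 95% CI -0.86 to 0.13, adjusted p = 0.514 in limma), and the low mean of the old group came from old sample 3. A region of 3.5 kb at chr6:52166001-52169500, between Hoxa2 and Hoxa3, held 4.74, 1.61 and 4.71 in young and 5.02, 3.41 and 3.17 in old samples (log2 difference 0.15, SE 0.35, 95% CI -0.57 to 0.88, adjusted p = 0.887 in limma). Between them a region of 0.5 kb at chr6:52169501-52170000 had 5, 0 and 4 reads in young samples and 0 reads in each old sample. A young sample was also at 0, and no fold change is given. Per kb these regions held at most 1.08, which is among the lowest 3.18% of all H3K27me3 regions. Beyond them, no H3K27me3 region was listed for 62.0 kb, over Hoxa4, Hoxa5, Hoxa6 and Hoxa7, up to a region of 105.5 kb that began 21.6 kb past Hoxa7.

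**Figure D3:**
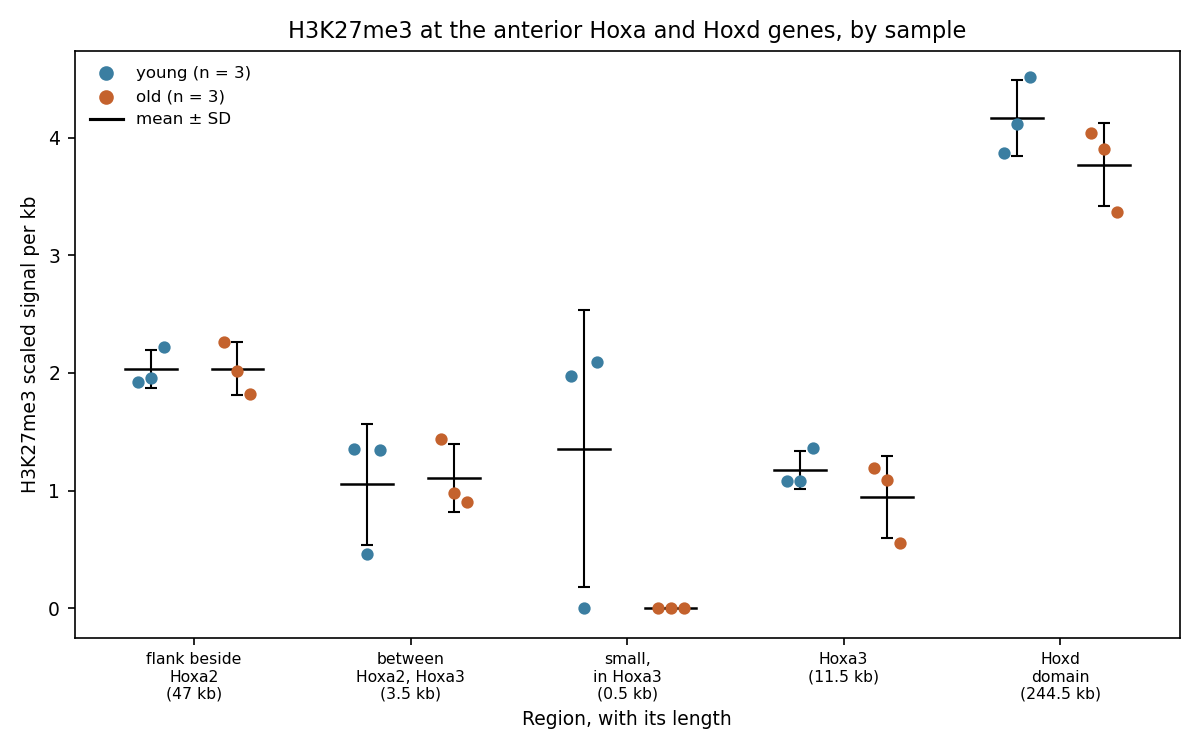
H3K27me3 scaled signal per kb of region in each sample (points), with the mean and SD of the 3 young and 3 old samples. The Hoxd domain lies at 3.37 to 4.51, the flank beside Hoxa2 at 1.82 to 2.27 and the regions of 3.5 and 11.5 kb lower, and young and old samples overlap at every region.

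In order of level per kb, the H3K27ac regions ran from Hoxa6-Hoxa11 (4.14) through Hoxa3 (2.47), Hoxa2 (1.89), Hoxd8 (1.87) and Hoxa4-Hoxa5 (1.53) to Hoxd9-Hoxd10 (1.17), as means over the 6 samples. The order differed by age below the first. In young samples Hoxd8 (2.33) and Hoxa3 (2.26) came next and Hoxd9-Hoxd10 (1.71) stood above Hoxa4-Hoxa5 (1.595), whereas in old samples Hoxd8 (1.41) and Hoxd9-Hoxd10 (0.64) were the lowest. Only the first was separate from the rest in every sample. The H3K27me3 regions ran from the Hoxd domain (3.97) through the flank beside Hoxa2 (2.03) to the regions between Hoxa2 and Hoxa3 (1.08) and in Hoxa3 (1.06), and the first 2 were separate from each other and from these lower regions in every sample. The regions of 0.5 kb were left out of both orders. Among the 6 H3K27ac regions with a fold change 2 were higher and 4 lower in old samples, with a median log2 difference of -0.06, beside -0.00 over all H3K27ac regions. Among the 4 such H3K27me3 regions 1 was higher and 3 lower, with a median of -0.07 beside -0.01.

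**Figure D4:**
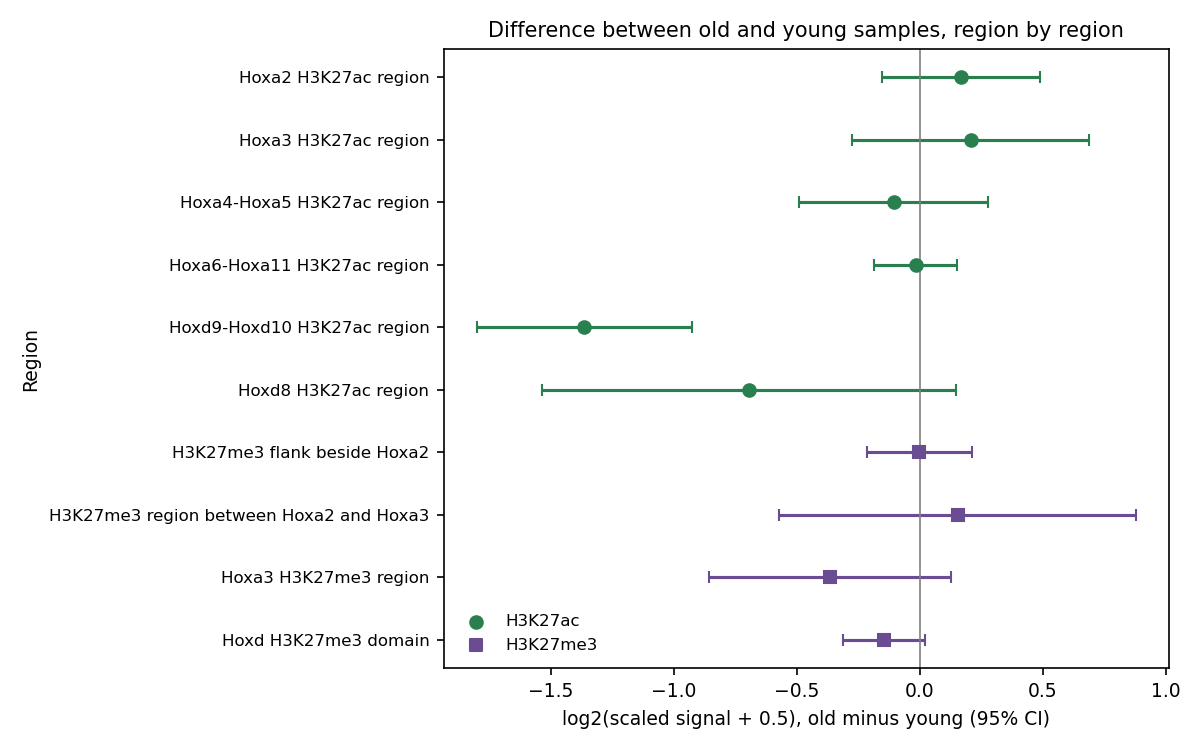
Difference between old and young samples in log2(scaled signal + 0.5), with its 95% confidence interval, for the 10 member regions longer than 0.5 kb (circles H3K27ac, squares H3K27me3). The interval excludes 0 at the Hoxd9-Hoxd10 region, at -1.36, and spans 0 at the other 9.

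The balance of the marks was set out as the log2 ratio of H3K27ac to H3K27me3 signal per kb over all member regions of a cluster. The tables were normalized separately, so its level is a description and no test was run. For the Hoxa members it was 0.83, 0.84 and 0.43 in the young and 0.41, 0.79 and 1.10 in the old samples. The means were 0.70 ± 0.24 and 0.77 ± 0.35 (SD, n = 3), a difference of 0.07, less than the spread within either age. H3K27ac exceeded H3K27me3 per kb in all 6, on average by 1.62-fold in young and 1.70-fold in old samples. The median per kb over all regions was also higher for H3K27ac, at 2.20, than for H3K27me3, at 1.47. A balance of 0 is therefore not a neutral point between the marks. The summed regions also reached past the members and differed between the marks. Of 62.5 kb of H3K27me3 regions, 47.0 kb was the flank beside Hoxa2, which overlaps no member body. Of 79.5 kb of H3K27ac regions, 39.5 kb was the Hoxa6-Hoxa11 region. With regions over member bodies alone, a choice made after seeing the data, the young samples had 1.33 ± 0.38 and the old ones 1.66 ± 0.63 (SD, n = 3), which differ by 0.33.

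For the Hoxd members the balance lay on the other side of 0. It was -0.95, -1.35 and -1.31 in young and -2.29, -2.54 and -2.08 in old samples, with means of -1.20 ± 0.22 and -2.30 ± 0.23 (SD, n = 3) and no overlap. H3K27me3 thus exceeded H3K27ac per kb by 2.30-fold in young and 4.94-fold in old samples. The ages differed by -1.10. The H3K27me3 side was the whole Hoxd domain of 244.5 kb, which reached well beyond the members. Of the 16.0 kb of H3K27ac regions in this balance, 14.0 kb was the Hoxd9-Hoxd10 region, which lies over no member. With regions over member bodies alone, which leaves out that region, the young samples had -0.71 ± 0.31 and the old ones -1.26 ± 0.68 (SD, n = 3). These differ by -0.55, less than the SD of the old samples. The H3K27ac side then rests on the Hoxd8 region alone, at 2 to 13 reads a sample, where the ages overlapped.

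**Figure D5:**
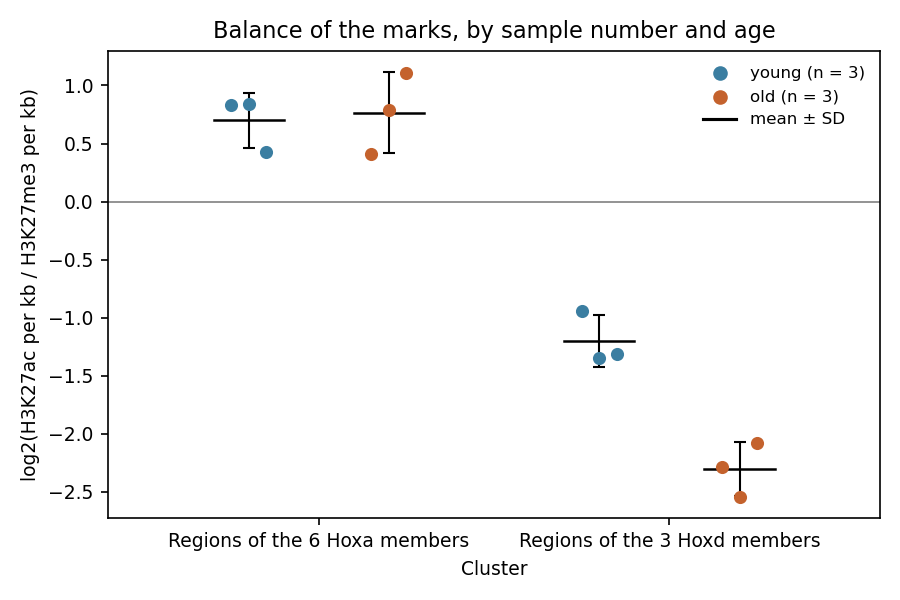
Balance of the marks, as log2 of H3K27ac over H3K27me3 signal per kb, in each sample (points) with the mean and SD of each age (n = 3). The Hoxa members lie above 0 and the ages overlap, while the Hoxd members lie below 0, with old samples at -2.54 to -2.08 and young at -1.35 to -0.95.

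Related genes were read by the same window rule. Over all regions, 9.6% had an unadjusted p under 0.05 for H3K27ac and 13.9% for H3K27me3. Counts below at that threshold are to be read against these shares. Counts of called regions are to be read against the shares called over all regions, 0.0822% for H3K27ac and 0.488% for H3K27me3. At the posterior Hoxa and Hoxd genes 2 of 4 H3K27ac regions were called, both lower in old samples, and 2 had an unadjusted p under 0.05. Of those called, 1 is the Hoxd9-Hoxd10 region above. Of the 4 regions 3 are shared with the anterior genes, and the median log2 difference of the 4 was -1.03. At these genes 0 of 2 H3K27me3 regions were called in limma, with 0 at an unadjusted p under 0.05. The Hoxb cluster had no H3K27ac region within its windows and a single H3K27me3 region (log2 difference -0.23, unadjusted p under 0.05, not called). The Hoxc cluster had 2 H3K27ac regions with a median of 0.23 and 3 H3K27me3 regions with a median of -0.49, 0 called in limma for either mark, though 1 and 3 of them had an unadjusted p under 0.05.

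Of the partners and regulators of Hox genes, the cofactors of the Meis, Pbx and Pknox families had 39 H3K27ac regions, 0 called in limma (5 at an unadjusted p under 0.05, median 0.11), and 25 H3K27me3 regions, of which 4 were called lower and 0 called higher (median -0.35, 20 lower and 5 higher in all, 14 at an unadjusted p under 0.05). All 4 lay at Meis2, which encodes a homeodomain partner of HOX proteins, with log2 differences of -1.19 to -1.74 and adjusted p of 0.000176 to 0.0455 in limma. Those from chr2:116056501 to chr2:116077500 adjoined without a gap, so they are not sites separate from each other. The remaining region lay apart from them, at chr2:116008001-116010500. The retinoic acid pathway, an inducer of 3′ Hox genes, had 34 H3K27ac regions (median -0.03, 3 at an unadjusted p under 0.05) and 36 H3K27me3 regions (median -0.10, 6 at an unadjusted p under 0.05), 0 called in limma for either mark. Polycomb and Trithorax regulators had 38 H3K27ac regions (median 0.03, 4 at an unadjusted p under 0.05) and 21 H3K27me3 regions (median -0.10, 2 at an unadjusted p under 0.05), again 0 called in limma. The limb position genes Tbx4, Pitx1 and Tbx5 had 5 and 3 regions, with medians of -0.36 and 0.11, 0 called in limma, and 2 at an unadjusted p under 0.05 for each mark.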

How the data were processed

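The deposited tables listed, for each mark, the same regions in all 6 samples with a signal named rpkm. It was taken here as reads per 1000000 over a constant 0.5 kb. All values came out as whole reads within a tolerance of 0.001. The submitters' processing notes name Bowtie2, Picard and mm10/GRCm38, and how regions were called is not given in the sources used here. Groups followed the labels. Members and comparison lists were chosen with earlier results of these data known. All 9 members are named, with the region over each start site (1 kb on each side) and further regions by count and range, or by name where the groups did not overlap. Signal was scaled by the median of ratios, and old was compared with young in limma 3.58.1 (R 4.3.3, pseudocount 0.5, trend and robust moderation, two-sided, Benjamini-Hochberg over all regions). The code was tested on simulated data. GENCODE vM21 basic gave genes, RefSeq GRCm38.p6 the promoters. Alternatives were the signal as deposited, TMM, pseudocounts 0.1 and 2, a lower-quartile filter, plain moderation, a replicate block, each sample left out, other windows, and edgeR 4.0.16 and DESeq2 1.42.0 on recovered reads. Floors of 3 reads cover counting error only. A gene of the comparison lists is not reported here.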

Additional observations from a re-analysis of the deposited data

How the results depend on the processing

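The number of H3K27ac member regions called was 1, and it was 0 without trend and robust moderation, 0 with gene bodies alone, which leave out the Hoxd9-Hoxd10 region, and 2 with 50 kb on each side, where the region over Hoxa13 came in. Leaving out a sample gave 0 (young sample 1) to 1. For H3K27me3 the number called was 0 under every alternative, from 0 to 0 with a sample left out. With a replicate block the counts were 1 for H3K27ac and 0 for H3K27me3, and no call changed. The sample numbers did not pair the samples (correlations of same-numbered deviations -0.05 to 0.07 for H3K27ac and -0.08 to 0.04 for H3K27me3). DESeq2 gave no adjusted p to the Hoxd9-Hoxd10 region, and without its independent filter, an alternative chosen after seeing the data, the adjusted p was 0.0277.

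At the Hoxd9-Hoxd10 region the alternatives ranged from -1.499 to -1.24 on the log2 scale, with adjusted p of 2.63e-05 to 0.293. The sign turned, never past the threshold, at regions whose difference was near 0. With a sample left out the difference spanned -0.087 to 0.046 at the Hoxa6-Hoxa11 region, -0.080 to 0.080 at the flank beside Hoxa2 and -0.28 to 0.37 at the H3K27me3 region between Hoxa2 and Hoxa3. At the flank it was also 0.0029 with TMM, 0.019 in edgeR and 0.011 in DESeq2 with or without its filter.

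The age difference in the balance of the Hoxa members was -0.10 to 0.25 with a sample left out, and that of the Hoxd members -1.21 to -0.98. With gene bodies alone, chosen after seeing the data, these were 0.33 and -0.55, and with only regions over a member start the Hoxd difference was -0.55. For Hoxa the last could not be computed, as no H3K27me3 region lay over a member start. The signal as deposited moved the median of all regions by -0.12 for H3K27ac and -0.13 for H3K27me3. Depth limited the Hoxd8 region, with 2 to 13 reads a sample. Apart from the causes named, the cause of these changes was not tested.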
